A study of Mus musculus with 3 samples.

Results

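Interferons are secreted antiviral cytokines that cells sense through paired surface receptors. Receptor-bound Janus kinases activate transcription factors of the STAT and IRF families, which switch on effector genes that interfere with viral RNA, protein or entry. Pattern-recognition sensors such as the Toll-like receptors and the RIG-I-like helicases detect foreign molecules and lead to interferon production. Fibroblasts are a classical source of type I interferon and respond to it. The UMI-RNAseq dataset of NIH3T3 cells was used here to describe 42 genes of this system, chosen by gene name, out of 55573 genes listed. The 42 names each matched 1 gene, of which 41 are annotated as protein coding and 1 (Mx2) as a polymorphic pseudogene in GENCODE M21. They were divided by known role into 4 receptor genes, 7 kinases and adaptors, 7 transcription factors, 6 sensors and 18 inducible effectors. The 11 receptor, kinase and adaptor genes are called signal genes below.

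NIH3T3 is an established mouse fibroblast line, here untreated and grown in DMEM with fetal bovine serum. It was measured in 3 libraries of 1 group, and neither an interferon-treated nor any other group was part of the comparison. Separate cultures are not stated for the libraries, so each SD and p measures only the spread between these libraries, which may be technical. Values are FPKM, that is, fragment numbers scaled to the length of the gene and to the depth of the library, and they rest on 13959723 to 14423209 fragments per library. Of 10 fibroblast marker genes, 9 had an FPKM of at least 1 in each library, with a summed level of 9212 to 9333 FPKM, and Lum was listed at 0. Retina is named in the extraction text, yet 0 of 10 retina markers reached 1 FPKM and their summed level was 1.01 to 1.61 FPKM. Of 10 immune markers, 3 (Cd14, Lyz2 and Cd68) reached 1 FPKM, the summed level was 21.9 to 23.5 FPKM, and the defining markers Cd3e, Itgam and Adgre1 were at 0 in each library. The part of other cells in the levels below was not tested. In bulk RNA, fewer cells that express a gene and less RNA per cell cannot be told apart.

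Many interferon-inducible genes carry an interferon-stimulated response element (ISRE), the site bound by IRF proteins and by the STAT2 and IRF9 complex. Its core, taken as GAAA, any 2 bases and GAAA again, was searched on both strands (TTTC, any 2 bases and TTTC on the other) in RefSeq promoter windows of GRCm38.p6, from 250 bases before to 50 bases after each start, and overlapping matches were counted separately. A window was found for 35 of the 42 genes. The core occurred in 9 of 13 inducible effectors, 2 of 7 transcription factors, 1 of 7 kinases and adaptors, 1 of 4 sensors and 0 of 4 receptors. For comparison, it occurred in 1079 of 27025 RefSeq genes (3.99%) and in 3.44% of 32851 windows. The stretches upstream of the start that hold it are shown from 5′ to 3′ on the strand of the gene, in order of the mean FPKM of the gene, because genes with this core differed widely in level, here from 32.2 FPKM for Irf2 to 0 for Rsad2. Capitals mark the core, in either orientation.
Irf2: tggggaagtGAAAATGAAAttgacttttc
Bst2: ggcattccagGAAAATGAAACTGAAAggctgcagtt
Ifitm2: ccaccaacagGAAAAGGAAAttgctagaga
Stat2: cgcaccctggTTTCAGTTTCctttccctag
Isg15: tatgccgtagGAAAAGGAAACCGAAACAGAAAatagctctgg
Ifit1: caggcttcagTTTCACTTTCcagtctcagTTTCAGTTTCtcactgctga
Ifit3: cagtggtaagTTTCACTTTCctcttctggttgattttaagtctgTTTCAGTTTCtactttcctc
Oas1a: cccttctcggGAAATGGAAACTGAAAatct
Rsad2: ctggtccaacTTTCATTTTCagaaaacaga

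These stretches lie at chr8:46739495-46739523 on the plus strand for Irf2, chr8:71537577-71537612 on the minus strand for Bst2 and chr7:140955988-140956017 on the minus strand for Ifitm2. Those of Stat2 (chr10:128270266-128270295) and Isg15 (chr4:156200865-156200906) are on the plus and the minus strand. Ifit1 (chr19:34640775-34640823) and Ifit3 (chr19:34583363-34583426) are on the plus strand. Oas1a (chr5:120907526-120907555) and Rsad2 (chr12:26456553-26456582) are on the minus strand. Isg15 holds 3 overlapping matches, the first 78 bases before the start. In Oas1a the nearest match begins 14 bases before the start, and in Irf2 the only match begins 241 bases before it. Myd88 had a match before its start that is not shown, and in Ifitm3, Eif2ak2 and Ifih1 the matches lay after the start. A match is a description of sequence and not a mapped site.

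**Figure D1:**
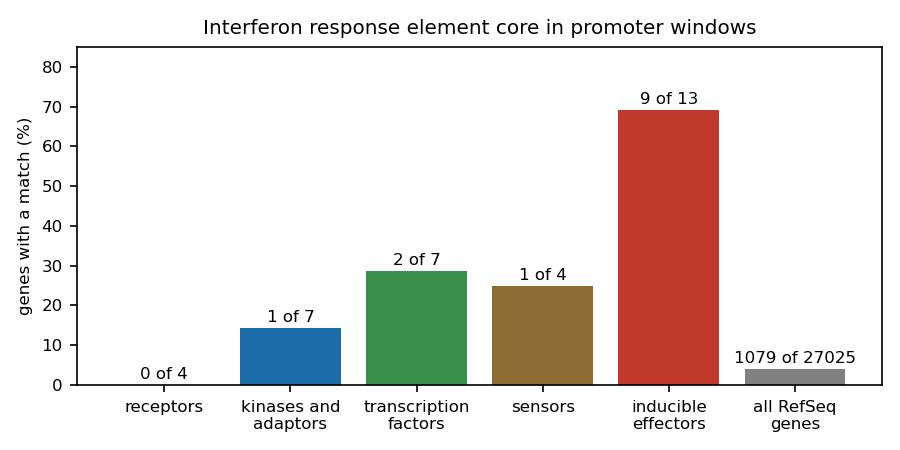
Share of genes with at least 1 match to the core of the interferon-stimulated response element in a RefSeq promoter window, in percent, for each role and for all RefSeq genes, with the counts above the bars. The inducible effectors had 9 of 13 genes with a match and the receptors 0 of 4, against 1079 of 27025 genes in all.

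All 4 interferon receptor genes were expressed in untreated NIH3T3 cells, and the chain named 1 of each receptor lay above the chain named 2. Ifnar1 and Ifnar2 encode the chains of the type I interferon receptor, and Ifngr1 and Ifngr2 those of the interferon gamma receptor. Ifngr1 (ENSMUSG00000020009, chromosome 10 from 19591949 to 19610229 of GRCm38) had 47.1, 48.6 and 48.2 FPKM in libraries 1, 2 and 3. Ifngr2 (ENSMUSG00000022965, chromosome 16 from 91547072 to 91565623) had 23.0, 22.2 and 22.4 FPKM. Within a library, Ifngr1 was 2.13-fold ± 0.0739 (SD, n = 3) as high as Ifngr2. The values of the chains did not overlap. Ifnar1 (ENSMUSG00000022967, chromosome 16 from 91485238 to 91507441) had 40.8, 41.3 and 41.1 FPKM. Ifnar2 (ENSMUSG00000022971, chromosome 16 from 91372783 to 91405589) had 16.4, 15.9 and 18.4 FPKM. Ifnar1 was 2.44-fold ± 0.183 (SD, n = 3) as high as Ifnar2, again without overlap. Of the exon bases of Ifnar2, 9.46% lie in Gm21970 on the same strand, which was listed at 0. How fragments that fit both genes were counted is not stated. The median of the 4 receptors was 31.8 ± 0.103 FPKM (SD, n = 3), beside 21.9 ± 0.123 FPKM for the 10801 protein-coding genes with a mean of at least 1.

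Jak1 stood out among the kinases with the highest FPKM of all 42 genes. The Janus kinase JAK1 serves both interferon receptors, JAK2 the gamma receptor and TYK2 the type I receptor. Jak1 (ENSMUSG00000028530, chromosome 4 from 101152367 to 101265282) had 275.9, 276.3 and 278.1 FPKM and exceeded 97.2% of the protein-coding genes with a mean of at least 1. Jak2 (ENSMUSG00000024789) had 20.2, 20.01 and 21.1 FPKM. Jak1 thus lay 13.5-fold ± 0.331 (SD, n = 3) above Jak2, and its level made up 50.6% ± 0.0451 (SD, n = 3) of the summed FPKM of the signal genes. Tyk2 had 11.1, 9.94 and 10.75 FPKM. The height of Jak1 depends on the gene length used. The FPKM rest on the mean of 8 annotated isoforms (1285 nt), and with the longest isoform (4906 nt) its mean was 72.5 FPKM and the ratio to Jak2 was 4.41.

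Among the adaptors and other kinases, Tbk1, the kinase that phosphorylates IRF3, was the highest. It had 72.3, 72.2 and 71.9 FPKM, which exceeded 83.8% of the protein-coding genes with a mean of at least 1. Mavs, the mitochondrial adaptor of the RIG-I-like helicases, had a mean of 18.2 ± 1.25 FPKM (SD, n = 3). Myd88, the adaptor of most Toll-like receptors, had 13.7 ± 0.670 FPKM. Ticam1, which encodes the adaptor TRIF used by TLR3 and TLR4, was the lowest of the signal genes. Its values were 6.35, 5.96 and 6.33 FPKM on 794 fragments in all. All 11 signal genes reached 1 FPKM in each library, against 48.6% of 21903 protein-coding genes and 22.2% of all genes listed. In each library, 9 of the 11 reached 10 FPKM, against 7654 of the 21903 protein-coding genes.

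**Figure D2:**
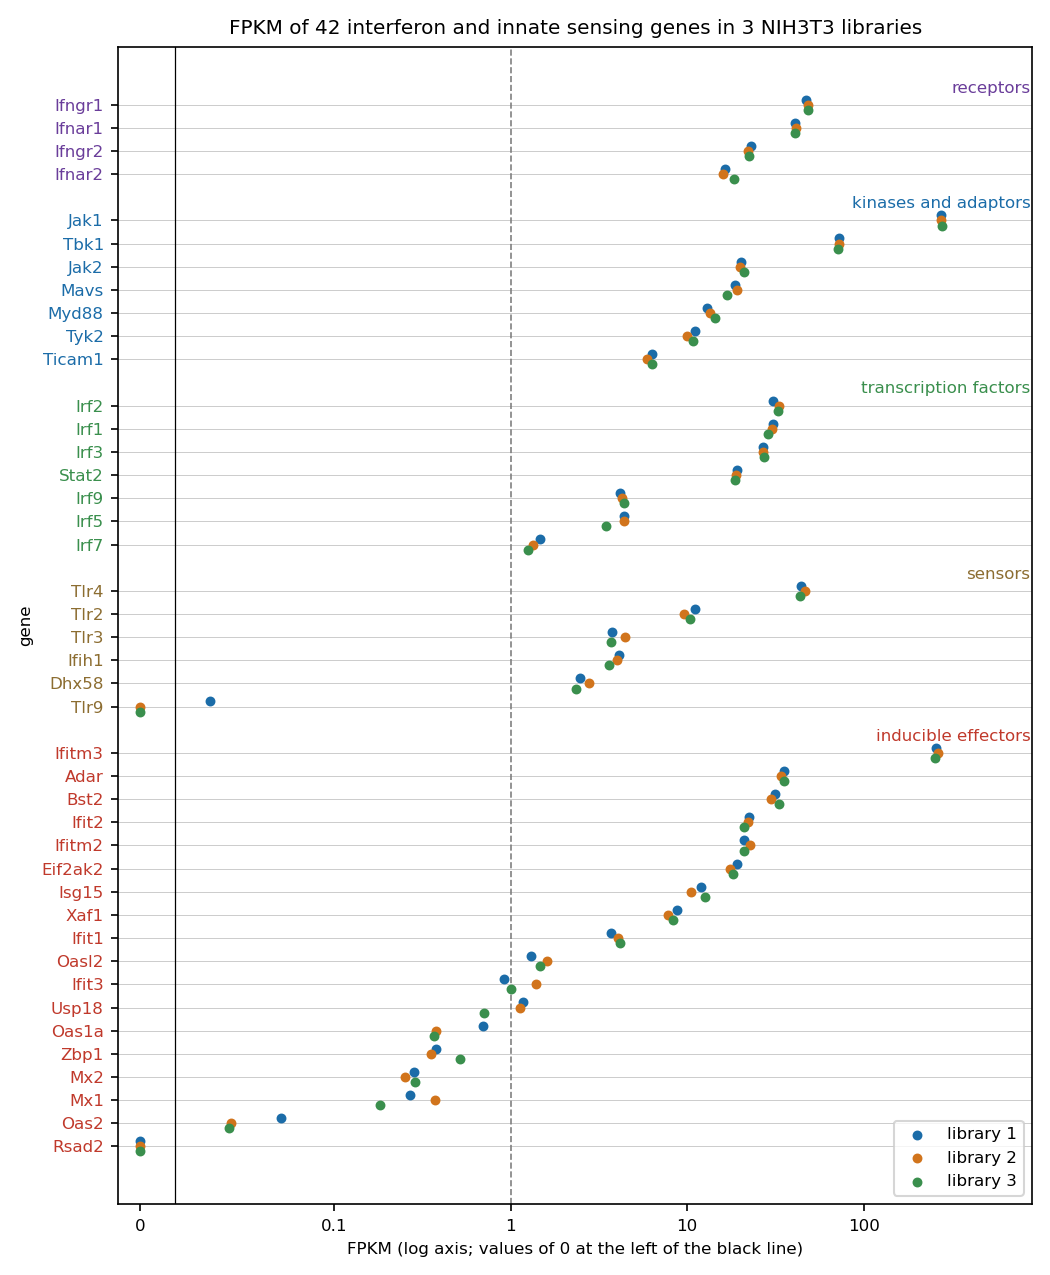
FPKM of the 42 genes (rows, grouped and coloured by role) on a log axis, with 1 point for each of the 3 libraries. The dashed line marks 1 FPKM, and values of 0 stand to the left of the black line. All signal genes lie right of the dashed line, whereas the inducible effectors reach from 259.1 FPKM for Ifitm3 down to 0 for Rsad2.

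The transcription factors fell into a higher and a lower set, with 4 genes above 18 FPKM and 3 below 5 FPKM. IRF1 activates and IRF2 represses many of the same interferon-responsive promoters. Irf2 had 30.9, 33.3 and 32.6 FPKM and Irf1 had 30.9, 30.1 and 28.8 FPKM. Irf2 was higher in libraries 2 and 3, but their values were equal to 3 digits in library 1, so no order between them is drawn. Irf3, the factor present before stimulation and activated by phosphorylation, had 26.8, 27.0 and 27.4 FPKM. Irf7, its interferon-inducible relative, had 1.46, 1.35 and 1.26 FPKM, on 77 fragments in all. Irf3 lay 20.1-fold ± 1.67 (SD, n = 3) above Irf7. Stat2 had 18.9 ± 0.261 FPKM (SD, n = 3), and Irf9, its DNA-binding partner, had 4.29 ± 0.124 FPKM. Stat2 was therefore 4.40-fold ± 0.187 (SD, n = 3) as high as Irf9. Irf5, known mainly from immune cells, had 4.40, 4.37 and 3.46 FPKM, and 14.2% of its exon bases overlap Tnpo3 on the opposite strand, which had 42.5 ± 1.01 FPKM. Whether strand was used in counting is not stated in the sources used here. Irf5 is not the only such gene, as 15 of the 42 have exon bases in another gene on either strand. Opposite-strand overlaps cover 16.8% of Adar (with Chrnb2), 11.3% of Myd88 (with Acaa1a) and 8.07% of Tyk2.

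Of the 6 sensor genes, 5 reached 1 FPKM in each library, against 48.6% of protein-coding genes, and Tlr9 did not. Tlr4, the receptor for bacterial lipopolysaccharide, was the highest, with 44.0, 46.5 and 43.7 FPKM. Tlr2, the receptor for bacterial lipopeptides, had 11.04, 9.60 and 10.3 FPKM. Tlr4 was 4.35-fold ± 0.440 (SD, n = 3) as high as Tlr2, or 1.89-fold with the longest isoform. Among these 6 genes, the sensors of double-stranded RNA were lower. That does not extend to RNA sensing genes outside them, as Ddx58 had 17.5 ± 0.389 and Eif2ak2 18.3 ± 0.861 FPKM (SD, n = 3). Tlr3 had 3.98 ± 0.403 FPKM (SD, n = 3), Ifih1, which encodes the helicase MDA5, had 3.90 ± 0.275 FPKM, and these levels did not differ beyond their spread. Dhx58, which encodes the related helicase LGP2, had 2.47, 2.77 and 2.35 FPKM. Tlr9, the receptor for unmethylated CpG DNA, had 0.0199 FPKM in library 1, which is 1 fragment, and 0 in libraries 2 and 3. A floor of 3 fragments would correspond to 0.0598 to 0.0618 FPKM for this gene. The median of the sensors was 3.94 ± 0.279 FPKM (SD, n = 3).

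The inducible effectors ranged from 0 to 259.1 FPKM. In each library, 7 of the 18 reached 10 FPKM, 3 lay between 1 and 10 FPKM, 6 stayed below 1 FPKM, and Ifit3 and Usp18 crossed 1 FPKM between libraries. Of 21903 protein-coding genes, 7654 reached 10 FPKM in each library, 2999 lay between the limits and 10957 stayed below 1 FPKM. Thus 10 of 18 effectors (55.6%) reached 1 FPKM in each library, against 48.6% of protein-coding genes. Both effector shares, at 1 and at 10 FPKM, lay near those of all protein-coding genes. Ifitm3, which encodes a membrane protein that restricts viral entry, was the highest (ENSMUSG00000025492, chromosome 7 from 141009586 to 141010770). It had 258.8, 263.8 and 254.7 FPKM and made up 62.2% ± 0.792 (SD, n = 3) of the summed FPKM of the effectors. Its neighbour and paralog Ifitm2 (chromosome 7 from 140954837 to 140955987) had 20.96, 22.7 and 21.02 FPKM. Ifitm3 lay 12.02-fold ± 0.385 (SD, n = 3) above Ifitm2. Of the exon bases of Ifitm2, 40.9% lie in Gm45717 on the same strand, which was listed at 0 in each library. How fragments that fit both genes were counted is not stated, so the level of Ifitm2 and its ratio to Ifitm3 are uncertain. For Ifitm3 only 0.662% of the 75-nt words occur in a transcript of another gene.

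Further effectors were expressed at the level of the signal genes. Adar, the RNA-editing deaminase that limits sensing of the own RNA of a cell, had 35.3, 34.1 and 35.3 FPKM. Bst2, which encodes tetherin, a protein that holds budding virus at the membrane, had 31.5 ± 1.73 FPKM (SD, n = 3). Eif2ak2, the kinase PKR that halts translation on double-stranded RNA, had 18.3 ± 0.861 FPKM. Isg15, a ubiquitin-like modifier, had 11.7 ± 1.0998 FPKM, and Xaf1, a proapoptotic factor, had 8.28 ± 0.451 FPKM. These levels stood beside very low ones in the same role. Rsad2, which encodes viperin, had 0 fragments in each library, where a floor of 3 fragments corresponds to 0.0743 to 0.0768 FPKM. Ifitm3 was at least 3402-fold higher than Rsad2 at that floor per library.

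The IFIT genes, which bind foreign RNA or translation factors, are clustered on chromosome 19 but differed in level. Ifit2 (from 34550694 to 34576419) had 21.9 ± 0.664 FPKM (SD, n = 3), Ifit1 (from 34640871 to 34650009) had 3.98 ± 0.246 FPKM and Ifit3 (from 34583531 to 34588731) had 1.104 ± 0.257 FPKM. Ifit2 was 5.51-fold ± 0.505 (SD, n = 3) as high as Ifit1, and 3.26-fold with the longest isoform. Of the 75-nt words of Ifit3, 41.1% occur in its copy Ifit3b, which had 0.210 ± 0.123 FPKM, so the level of Ifit3 is uncertain. Ifit3 and Ifit1 hold the core motif in the stretches shown above, whereas no match was found in the windows of Ifit2.

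Of the OAS and MX genes, Oasl2 alone reached 1 FPKM in each library, and Oas1a, Oas2, Mx1 and Mx2 stayed below it. OAS proteins make an activator of RNase L, and MX proteins are antiviral GTPases. Oasl2, an OAS-like gene, had 1.47 ± 0.157 FPKM (SD, n = 3). Oas1a had 0.699, 0.380 and 0.371 FPKM, on 19, 10 and 10 fragments. The exact Clopper-Pearson 95% intervals of these values, which cover counting error only, overlapped between libraries (0.421 to 1.09, 0.182 to 0.699 and 0.178 to 0.682 FPKM). Of its words, 47.6% occur in the copy Oas1g, which had 0.630 ± 0.0551 FPKM. Oas2 had 0.0503, 0.0260 and 0.0253 FPKM, on 4 fragments in all. Mx1 had 0.274 ± 0.0953 FPKM and Mx2 had 0.275 ± 0.0196 FPKM, on 18 and 20 fragments. Their values overlapped, and no order between them was detectable at this depth. Usp18, the protease that removes ISG15 and dampens the type I receptor, had 1.01 ± 0.257 FPKM, and Zbp1, a sensor of Z-form nucleic acid that triggers cell death, had 0.415 ± 0.0887 FPKM.

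**Figure D3:**
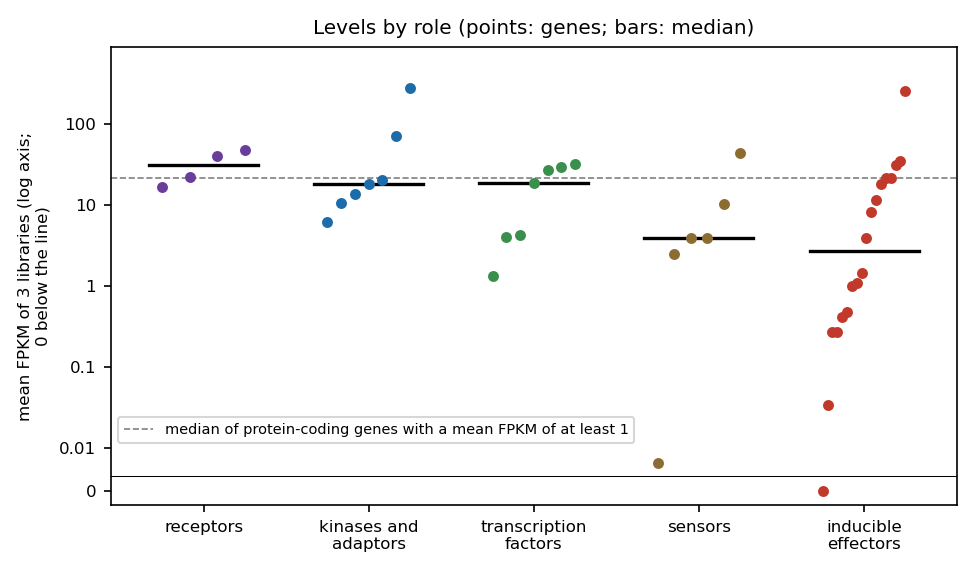
Mean FPKM over the 3 libraries of each gene (points, log axis, with 0 below the thin line) by role, with the median of each role as a bar and the median of protein-coding genes with a mean of at least 1 as a dashed line. The receptor bar lies at 31.8 FPKM and the effector bar at 2.72 FPKM, and the effector points reach from 0 for Rsad2 to 259.1 FPKM for Ifitm3, below the 276.8 FPKM of Jak1.

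Receptors and signal genes were then set against the inducible effectors. The median of the 11 signal genes was 20.2, 20.01 and 21.1 FPKM in libraries 1, 2 and 3, a mean of 20.4 ± 0.588 (SD, n = 3). For the 18 effectors it was 2.51, 2.83 and 2.83 FPKM, a mean of 2.72 ± 0.187 (SD, n = 3). The signal median lay 7.53-fold ± 0.502 (SD, n = 3) above the effector median, or 2.91 ± 0.10 on the log2 scale. This SD covers the spread between libraries only, and not the choice of genes or of summary. In each library, 10 of 18 effectors lay below the lowest signal gene and 4 of 18 above the signal median, while 11 of 11 signal genes lay above the effector median. The shares of all genes past these levels were not computed. For comparison, the median of all 21903 protein-coding genes, undetected ones included, was 0.827 ± 0.00781 FPKM (SD, n = 3), below both medians. A limit of 1 FPKM in each library leaves out 8 effectors and 0 signal genes. Such a limit acts on the level that is compared and can only raise the effector median, so the log2 ratio of 0.046 ± 0.054 (SD, n = 3) among the genes left is a description and says nothing of how stable the difference is. A mean in place of the median gave a log2 ratio of 1.103, and medians without Ifitm2 and Ifitm3 gave 3.95. Both changes are far larger than the SD over libraries. No p is given for a summary over chosen genes, and genes are not replicates.

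**Figure D4:**
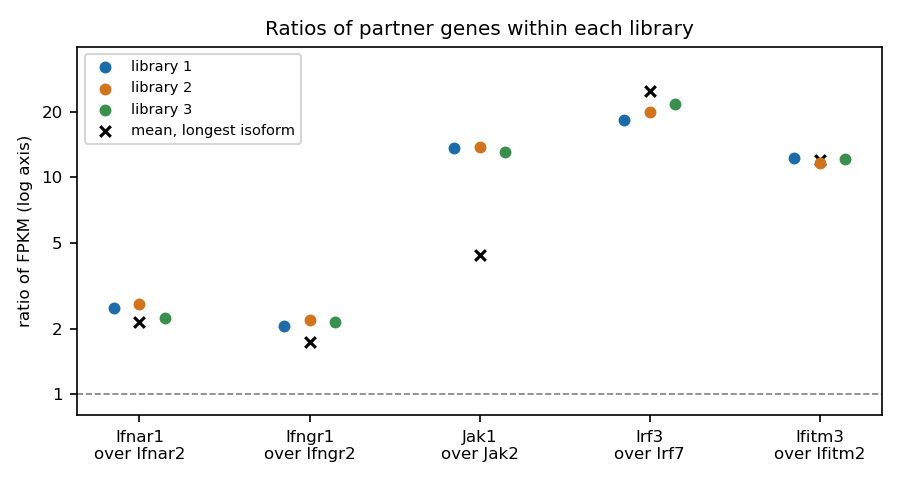
Ratio of FPKM between partner genes (log axis), with 1 point for each of the 3 libraries and a cross for the mean ratio with the longest annotated isoform. All points lie above 1, from the 2.05-fold of Ifngr1 over Ifngr2 in library 1 to the 21.7-fold of Irf3 over Irf7 in library 3.

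The 5 partner ratios given above (Ifnar1 to Ifnar2, Ifngr1 to Ifngr2, Jak1 to Jak2, Irf3 to Irf7 and Ifitm3 to Ifitm2) were tested by flipping the signs of their log2 values over the libraries, an exact permutation test, two-sided. The exact test gave p = 0.25 for each ratio, also when adjusted by Benjamini-Hochberg over the 5 ratios. With 3 libraries no lower p can be reached, and 0.05 is out of reach of this design. Each ratio was above 1 in 3 of 3 libraries, with an SD far below its size. That SD does not cover the gene length used or the exon overlaps of Ifnar2 and Ifitm2.

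In order of mean FPKM, the 42 genes began with Jak1, Ifitm3, Tbk1, Ifngr1, Tlr4, Ifnar1 and Adar. Each of these lay above the next without overlap between libraries. Jak1 and Ifitm3 changed places with the longest isoform, where Jak1 lay at 0.280 times Ifitm3. The order below them also depends on the length used. With the longest isoform, Tbk1 had 29.8, Bst2 23.98, Ifngr1 23.77 and Ifitm2 21.6 FPKM. Tlr4 had 19.4, Ifnar1 18.8 and Adar 15.5 FPKM, so Bst2 and Ifitm2 moved up past Tlr4, Ifnar1 and Adar. Of the 41 pairs of neighbours in this order, 20 had overlapping values, among them Irf2 and Bst2, Ifit2 and Ifitm2, Stat2 and Eif2ak2, Irf9 and Irf5, and Ifit1 and Ifih1. Of the 42 genes, 33 reached 1 FPKM in each library, against 48.6% of protein-coding genes and 22.2% of all genes listed. The median of mean FPKM of the detected protein-coding genes, which 50% of those exceed by definition, was 21.97. Of the 42 genes, undetected ones included, 12 lay above it.

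The levels of these genes did not differ between the 3 libraries beyond counting error in the test used. Fragments were compared between libraries by a chi-square test for each gene with at least 15 fragments, with Benjamini-Hochberg adjustment over 15306 genes. Of the 39 members tested, 0 had an adjusted p under 0.05 and 0 an unadjusted p under 0.05, where 1.78% and 9.04% of all genes tested did. The lowest unadjusted p was that of Mavs, with 18.8, 19.1 and 16.8 FPKM (adjusted p = 0.559 in the chi-square test over all genes). The coefficient of variation exceeded that of counting error in 10 of 39 members. The share of all genes tested that do so was not computed, so this count is not read as a trait of the members. The coefficient of variation was 0.423% for Jak1 against 1.41% from counting error, and 38.7% for Oas1a against 27.7%. A test that misses the threshold does not show that the libraries are equal.

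**Figure D5:**
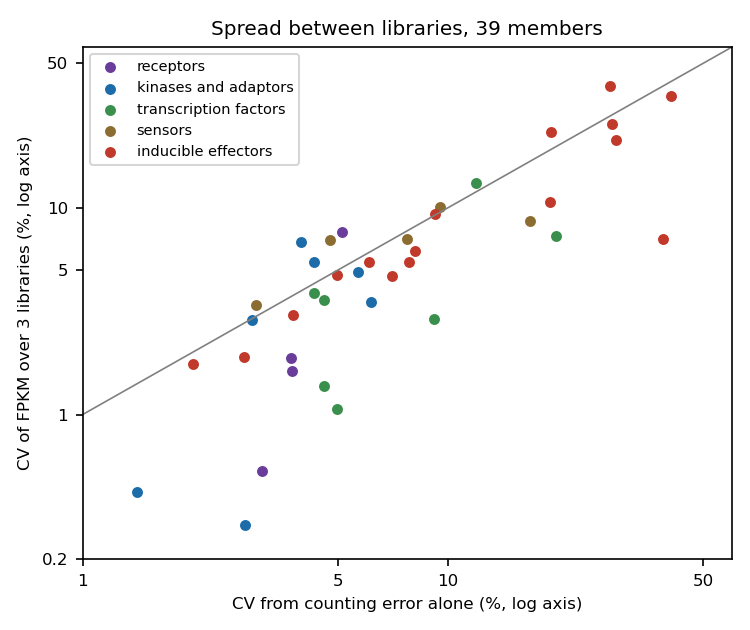
Coefficient of variation (CV) of FPKM over the 3 libraries against the CV that counting error alone gives, in percent on log axes, for the 39 members with at least 15 fragments, coloured by role. The grey line marks equality, and 10 of 39 members lie above it. The share over all genes tested was not computed.

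Interferon genes themselves were hardly seen. Of 20 interferon ligand genes listed, 0 reached 1 FPKM, against 48.6% of protein-coding genes that did so in each library. Of the 20, 17, among them Ifnb1 and Ifng, were at 0 in each library. Ifne, an epithelial type I interferon, was the highest with 0.212 ± 0.00361 FPKM (SD, n = 3) on 2 fragments per library, and Ifnl3 and Ifna13 had 1 fragment each. A floor of 3 fragments corresponds to at most 0.383 FPKM for any of these genes. Sequence shared among the ligand genes was not examined. Of a list of 7 nucleic acid sensing genes, 6 were found by name. By contrast, these 6 all reached 1 FPKM in each library, against 48.6% of protein-coding genes. Trim25, a ubiquitin ligase that activates RIG-I, had 25.7 ± 0.525 FPKM and the kinase gene Ikbke had 20.2 ± 0.338 FPKM. Ddx58, which encodes RIG-I, had 17.5 ± 0.389 FPKM, above both Ifih1 and Dhx58 in each library. In a list of 12 other interferon-inducible genes, 10 reached 1 FPKM in each library, against 48.6% of protein-coding genes. The median of the 12 was 4.78 FPKM. The highest were Ifi27 with 72.1 ± 1.01 FPKM and the chemokine gene Ccl5 with 25.96 ± 2.96 FPKM. Ifi44 and Iigp1 were below 1 FPKM, with 0.177 ± 0.0697 and 0.0510 ± 0.0179 FPKM.

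The effectors with and without the core motif overlapped in level. The 9 effectors with a match in their window had means from 0 FPKM for Rsad2 to 259.1 FPKM for Ifitm3, with a median of 11.7 FPKM. The 4 with a window but no match (Adar, Ifit2, Oasl2 and Xaf1) had means from 1.47 to 34.9 FPKM, with a median of 15.1 FPKM. Among the stretches printed above, Bst2, Oas1a and Isg15 each hold overlapping matches, at 31.5, 0.483 and 11.7 FPKM. The 5 effectors without a window (Mx1, Mx2, Oas2, Usp18 and Zbp1) were not part of this count. Their means lay between 0.0339 FPKM for Oas2 and 1.01 FPKM for Usp18, below the median of all 18 effectors (2.72 FPKM). The medians with and without a match therefore leave out low effectors and do not describe the whole role.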

How the data were processed

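Total RNA of untreated NIH3T3 cells was sequenced as UMI-RNAseq in 3 libraries. According to the methods, reads with a UMI (UMI-tools 1.0.0) were mapped with Hisat2 (2.0.4 in the submitters' processing notes), UMI duplicates were removed, and genes were counted with HTSeq 0.6.1. The genome build behind the counting is not given in the sources used here. The authors deposited FPKM values computed from the counts and gene lengths, not pooled, and 0 columns of values were left unused.

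Gene positions and isoform lengths came from GENCODE M21 (GRCm38), in which 55394 of 55573 gene IDs were found. Fragments were recovered as FPKM times the rounded mean isoform length times the library total, which was taken from genes of 1 isoform. They were whole within 0.01 (plus 1e-06 of the value) for 99.2% of 26158 genes, and the recovery was tested on simulated data. For Isg15 and Mx1 the nearest length that gave whole fragments (703 and 1542 nt) was used, and for Mx1, with few fragments, that choice is not unique. FPKM were not filtered or rescaled. Shared sequence is the percentage of a gene's 75-nt words found in a transcript of another gene. Promoter windows came from RefSeq (GRCm38.p6). For 25 of 35 members the first 30 bases after a start occurred in a GENCODE M21 transcript. Python 3.11.15, numpy 2.4.6, pandas 2.3.3, scipy 1.17.1 and matplotlib 3.10.9 were used.

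The genes, roles, lists and alternatives were chosen with earlier results of these data known. Values in each library are given for the receptors, the 2 highest and 2 lowest genes of each role, partner genes and genes past the spread test. Copies, overlapping genes and family ratios were named after their values were seen. Since the libraries share 1 condition, no groups of samples were compared.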

Additional observations from a re-analysis of the deposited data

How the results depend on the processing

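Across the alternatives, 55 of 66 values stayed within 1 SD of the libraries, kept the sign of a ratio or, for a count, stayed within 1.5 times. The 30 partner ratio values, which are among the 55, kept their sign. Each ratio was above 1 in each library. Leaving out a library or adding the same pseudocount to both genes therefore could not change the sign. Only the longest isoform could have changed it. Rescaling to 1000000 per library (TPM) gave a signal median of 29.6 and an effector median of 3.95, and means in place of medians gave 49.7 and 23.1 FPKM. The log2 ratio of signal to effector medians, 2.91 as reported, was 1.103 with means, 2.53 with a pseudocount of 1 and likewise 2.53 with the longest isoform. It was 3.95 without Ifitm2 and Ifitm3. Among members with at least 1 FPKM it was 0.046, but that limit acts on the level compared and removes effectors only, so the fall was fixed by the choice and is no test of the ratio. In settings added after the data were examined, it was 3.81 without Adar, Eif2ak2, Usp18, Xaf1 and Zbp1, and 2.36 without the genes with shared sequence (Ifit3, Ifitm2 and Oas1a). These changes follow from which genes enter the median or from the added constant or length. The number of members detected, 33 as reported, lay between 30 (longest isoform, also added later) and 40 (any value above 0). For members under about 15 fragments, depth limits any comparison between libraries. No paired analysis was possible because the libraries all belong to 1 condition.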

Other observations

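Regulators of interferon signalling and the other Toll-like receptors were also listed. Of 6 negative regulators, 4 had an FPKM of at least 1 in each library, against 48.6% of protein-coding genes. Socs3, an inhibitor of cytokine receptor signalling, had 83.9 ± 1.37 FPKM (SD, n = 3) and the phosphatase gene Ptpn11 had 52.2 ± 0.972 FPKM, while Socs1, an inhibitor of Janus kinases, had 5.66 ± 0.601 FPKM. Ptpn6, a phosphatase gene known mainly from blood cells, had 0.489 ± 0.0825 FPKM, and Usp18 was below 1 FPKM in library 3 only. Of 5 other Toll-like receptor genes, Tlr6, whose protein pairs with TLR2, was the only one at 1 FPKM or more in each library, with 3.28 ± 0.397 FPKM. Tlr1, the alternative partner of TLR2, had 0.327 ± 0.0352 FPKM. Tlr5 and Tlr8 were at 0 in each library.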
